A study of Mus musculus with 4 samples.

Results

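The 10 imprinted growth genes Dlk1, Meg3, H19, Igf2, Peg3, Cdkn1c, Plagl1, Mest, Grb10 and Igf2r were followed in mouse small intestine with and without the Cyp3a cluster, a block of cytochrome P450 genes. They were listed by symbol, each probe being named through its transcript accession and the brightest probe standing for its gene. Of the 10 genes, 9 had a probe, 18 probes in all, against 21153 named genes with a probe on the array. H19 matched no probe and has no value here. The list was chosen by gene name with the measured levels of these same arrays, knockout against wild type, in view, so their differences between genotypes are a description and carry no p-value. RNA of small intestine came from wild-type mice and from Cyp3a-/- mice, which lack the cluster, with 2 arrays for each genotype. The labels state 2 experiments on different animals. Strain, age, sex, the stretch of intestine taken and whether an array held RNA of 1 animal are not given in the sources used here, so p-values and standard errors measure only the spread between these arrays.

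Imprinted genes are read mainly from 1 parental copy, and many of them regulate growth before and after birth. Genes read from the paternal copy, such as Igf2, Dlk1, Peg3 and Mest, are known mostly as promoters of fetal growth or regulators of precursor cells. Genes read from the maternal copy, such as H19, Cdkn1c, Grb10 and Igf2r, are known mostly as restraints on growth. Many are abundant in the fetus and fall to low levels after birth.

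The promoters of Dlk1, Meg3 and Plagl1 are shown because Dlk1 and Meg3 are neighbours read from opposite parental copies, and because these genes had the largest measured differences between genotypes among the 6 tested. Each is the RefSeq window of 300 bases of assembly GRCm38.p6 around a transcript start, on the plus strand. Capitals mark matches on either strand to the GC box GGGCGG, the TATA box TATAAA or the E box CACGTG. The Dlk1 window is chr12:109452573-109452872, the first of 2 Meg3 windows chr12:109540746-109541045 and the Plagl1 window chr10:13090582-13090881.
Dlk1: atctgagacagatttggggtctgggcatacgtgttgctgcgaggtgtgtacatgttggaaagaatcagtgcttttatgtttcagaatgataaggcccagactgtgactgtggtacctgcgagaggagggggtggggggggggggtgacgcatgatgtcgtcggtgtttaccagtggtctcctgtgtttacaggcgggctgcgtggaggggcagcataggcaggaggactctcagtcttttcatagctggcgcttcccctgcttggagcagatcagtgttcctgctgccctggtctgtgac
Meg3: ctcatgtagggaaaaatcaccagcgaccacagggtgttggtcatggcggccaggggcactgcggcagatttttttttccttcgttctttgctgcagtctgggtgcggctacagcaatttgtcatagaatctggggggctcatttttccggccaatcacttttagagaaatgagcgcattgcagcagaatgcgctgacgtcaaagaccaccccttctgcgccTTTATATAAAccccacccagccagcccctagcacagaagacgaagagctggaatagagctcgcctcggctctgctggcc
Plagl1: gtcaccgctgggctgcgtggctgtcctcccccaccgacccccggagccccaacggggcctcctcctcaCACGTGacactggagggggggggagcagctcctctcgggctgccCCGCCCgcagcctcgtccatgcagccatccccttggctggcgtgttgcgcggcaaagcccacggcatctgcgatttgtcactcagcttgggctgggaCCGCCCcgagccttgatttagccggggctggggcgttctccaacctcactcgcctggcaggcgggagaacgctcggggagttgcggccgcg

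The Dlk1 window held none of these motifs, and the Meg3 window shown held overlapping TATA box matches on both strands. The second Meg3 window, chr12:109545148-109545447, is not printed and held none of the motifs. The Plagl1 window held 2 GC boxes and 1 E box. Of the 15 windows found for 8 of the 10 genes, 8 held a GC box, 1 a TATA box and 2 an E box. Among all 32851 windows of the table the shares were 35.7%, 13.6% and 7.15%. Of the 15, those with a GC box belonged to Grb10, Igf2, Igf2r, Mest and Plagl1. The Mest windows starting at chr6:30737800 and chr6:30737803 overlap and share 1 GC box. The GC content was 55.7% for Dlk1, 53.7% and 50.3% for the first and second windows of Meg3 and 70.7% for Plagl1, with a median of 52.7% over all windows. A match, or the lack of one, says only which letters these windows hold.

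The level of a probe is its log2 signal minus the 75th percentile of its array. Probes differ in how brightly they bind, so levels are compared between arrays and not between genes. Values are listed below in the order wild type 1, wild type 2, knockout 1 and knockout 2. Between 55.1% and 64.4% of the 39429 probes of an array were well above background, and no spot was saturated. A gene was tested where 2 or more arrays had it well above background, which held for 14395 genes and for Dlk1, Meg3, Cdkn1c, Plagl1, Grb10 and Igf2r. Igf2, Peg3 and Mest reached that mark in wild type 2 alone and were not tested. Knockout 1 stood apart: its levels across genes correlated with those of the other arrays at 0.948 to 0.966, where these correlated with each other at 0.979 to 0.981.

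None of the 6 tested genes passed limma's test between genotypes, which called 0% of all genes higher and 0.0417% lower in knockout at an adjusted p under 0.05. All 6 had a negative difference, knockout minus wild type, as did 43.8% of all genes tested. After normexp, another background correction, 4 of the 6 were negative. Without knockout 1, or without knockout 2, it was again 4 of 6, and with array median scaling 5. Their median was -0.43 on the log2 scale, where that of all tested genes was 0.037. The deficit lay mainly in knockout 1, where the median of the 6 against the wild-type mean was -1.11 (all genes 0.032). In knockout 2 it was -0.052 (all genes 0.036). Meg3, Plagl1 and Grb10, all well above background, were lowest in knockout 1, as were 32.6% of all genes tested. They lay more than 0.5 (log2) below the wild-type mean there, against 17.7% of all genes. Dlk1 was not well above background in either knockout array, so the order of these arrays is not measured for it. With Dlk1 held at its background bound, the median of the 6 was -0.97 in knockout 1, -0.052 in knockout 2 and -0.43 between genotypes.

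**Figure D1:**
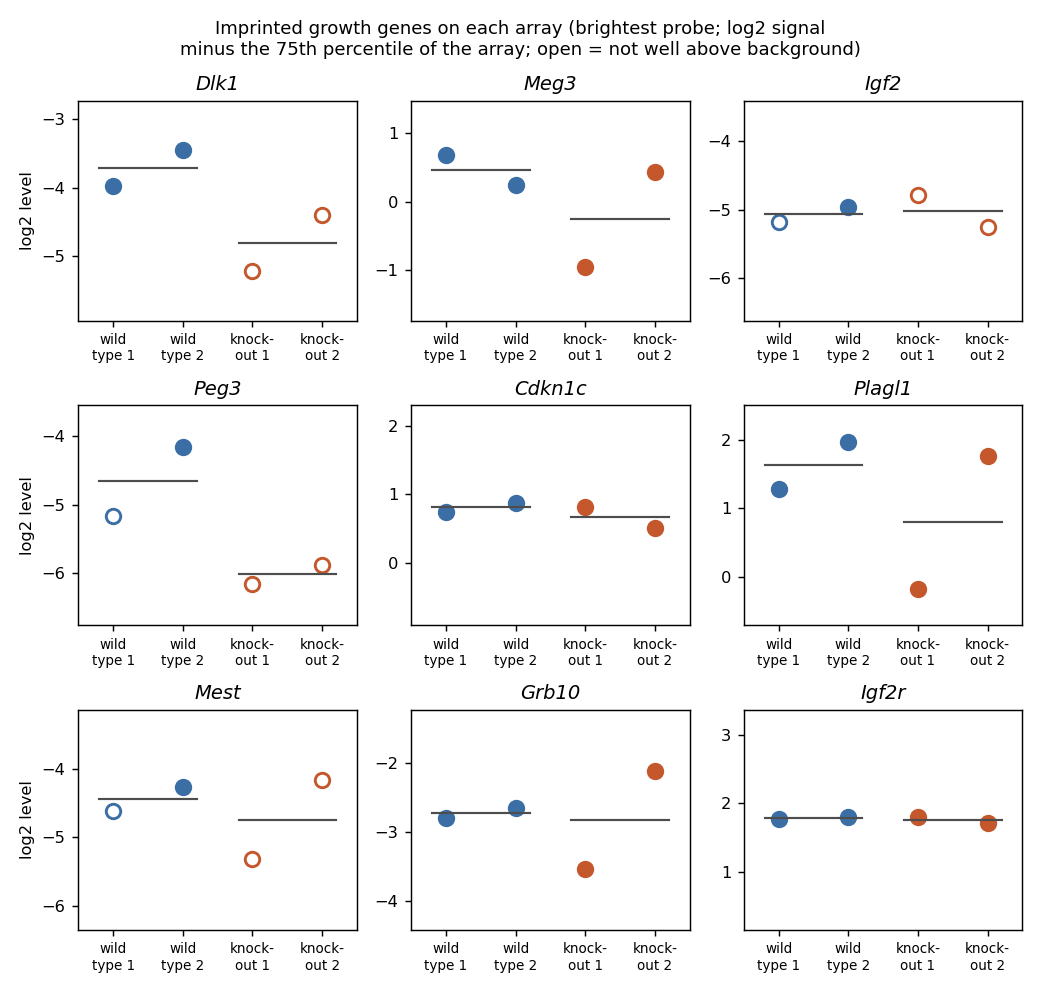
Level of the brightest probe of each of the 9 genes on each array, in log2 signal minus the 75th percentile of the array. Filled points were well above background, open points were not, and lines are the mean of the 2 arrays of a genotype. The knockout points of Dlk1 and Peg3 are open, at background and below the wild-type points, and the 4 arrays lay closest together for Igf2r.

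Dlk1 encodes a membrane-bound and secreted relative of the Notch ligands, also known as preadipocyte factor, which holds precursor cells back from becoming fat cells. Its brightest probe gave levels of -3.98, -3.46, -5.22 and -4.41. Both knockout arrays lay below both wild-type arrays, as they did for 6.09% of all genes tested. The mean was -3.72 ± 0.37 (SD, n = 2) in wild type and -4.81 ± 0.57 (SD, n = 2) in knockout, a log2 difference of -1.09 with a standard error (SE) of 0.52 from limma's fit. Since the probe was well above background in both wild-type arrays and in neither knockout array, the knockout level is only a bound. The bound used is the mean over the knockout arrays of the lowest signal called well above background, or the probe's own where that was higher. Against it Dlk1 was 1.64-fold lower. This is not a strict limit, as some probes not well above background lay higher, such as that of Begain at -4.66 in knockout 1 and -3.89 in knockout 2. The measured means differed 2.14-fold. By array, the bound lay -1.12 from the wild-type mean in knockout 1 and -0.30 in knockout 2 (log2). In knockout 2 the lowest level called well above background was -4.02, close to wild type 1 at -3.98. Dlk1 entered the test only through the wild-type arrays, which favours a higher level there. It does not require one, as the lowest level called well above background differed between arrays.

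Before any scaling the Dlk1 signals were dim, at 14.3, 32.4, 8.67 and 8.27, with errors from the scanner software of 20.4%, 12.2%, 31.4% and 31.0%. A second Dlk1 probe reached background only: its levels ran from -7.04 to -5.28, none well above it, and the genotypes overlapped. The direction of Dlk1 turned with the background correction. After normexp with an offset of 50, larger than every Dlk1 signal here, the log2 difference was 0.70, and with quantile scaling after normexp it was -0.15. Within the slide shared by wild type 2 and knockout 1 it was -1.76, without knockout 1 it was -0.69, and without wild type 2 it was -0.83. The 5 tested genes whose array values, centred on the gene's mean, lay nearest to those of Dlk1 were Trib2, Sertm1, Bhlha15, Zfp39 and Rac2. Their Euclidean distances over the 4 arrays were 0.15 to 0.28 (log2).

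Meg3, a long non-coding RNA read from the maternal copy, lies beside Dlk1 on chromosome 12, and the RefSeq table lists 0 protein-coding genes in the gap. Its brightest probe was well above background on every array, at 0.68, 0.23, -0.95 and 0.43. Knockout 2 fell between the wild-type arrays and knockout 1 lay below all others. The log2 difference was -0.72 (SE 0.49), a 1.64-fold ratio, while the knockout arrays were 1.38 apart and the wild-type arrays 0.45. Without knockout 1 the difference was -0.028, and without wild type 1 it was -0.49. A second probe gave -2.67, -3.43, -4.24 and -3.30. The dimmest of the 3 gave -3.55, -3.97, -5.64 and -4.26 and was well above background in wild type only. Against the mean bound of the knockout arrays, again no strict limit, it was 1.59-fold lower there. The brighter pair of Meg3 probes was lowest in knockout 1 with the genotypes overlapping. On the dimmest, both knockout values were below the wild-type values but are only bounds, with no measured order between them. In knockout 2 the lowest level called well above background was -4.02, close to wild type 2 at -3.97.

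Igf2 encodes a fetal insulin-like growth factor and was at the limit of detection. Its probe gave -5.18, -4.96, -4.79 and -5.25, with wild type 2 alone well above background, and the genotypes overlapped. The means differed by 0.054 (log2), less than the 0.21 between the wild-type arrays, and no fold can be given.

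Igf2r encodes the receptor that carries IGF2 to lysosomes for breakdown. Its levels were 1.77, 1.81, 1.81 and 1.71, the closest of the 9 genes. This probe is printed 10 times, and over the spots kept on an array the SD was 0.057 to 0.071 (log2). The array values are means over these spots, with an SD between arrays of 0.026 in wild type and 0.066 in knockout. A mean over spots varies less than a single spot, so these SDs are not like measures. The log2 difference was -0.030 (SE 0.26). It was 0.029 with array median scaling and -0.50 after normexp.

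Grb10 encodes an adaptor that dampens signalling by the insulin and IGF1 receptors. Its levels were -2.80, -2.64, -3.53 and -2.11, all well above background. The knockout arrays lay on opposite sides of the wild-type pair, at -0.81 and 0.61 from its mean. The log2 difference of -0.099 (SE 0.54) was 0.61 without knockout 1, -0.81 without knockout 2 and 0.53 after normexp.

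**Figure D2:**
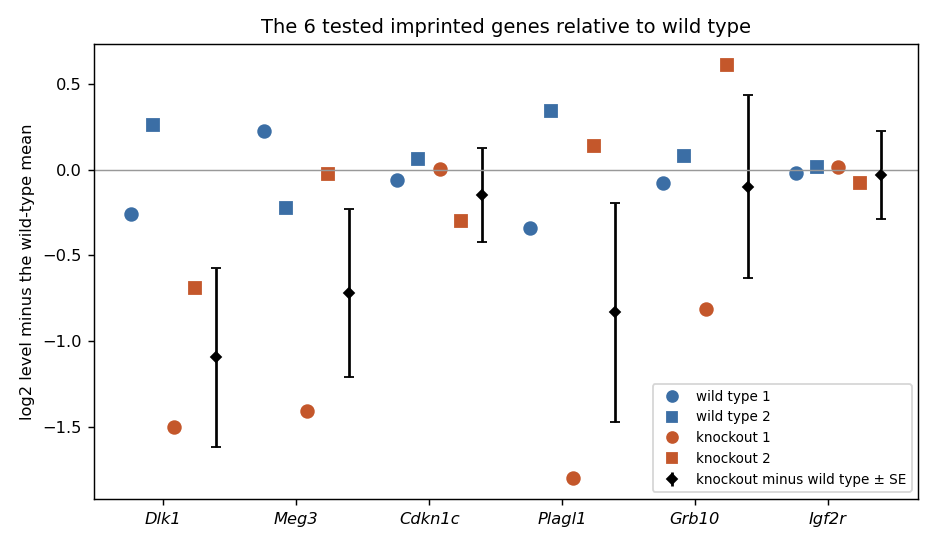
Level of the 6 tested genes on each array minus the wild-type mean (log2), with the difference between genotypes and its standard error as a diamond. Knockout 1 (circle) lay at -1.50 for Dlk1, -1.41 for Meg3, -1.80 for Plagl1 and -0.81 for Grb10, and near 0 for Cdkn1c and Igf2r.

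Cdkn1c encodes p57, an inhibitor of cyclin-dependent kinases that halts the cell cycle in differentiating cells. Its levels were 0.75, 0.88, 0.82 and 0.52, all well above background. Knockout 1 lay between the wild-type arrays and knockout 2 below both. The log2 difference of -0.15 (SE 0.27) was smaller than the 0.30 between the knockout arrays, and it was -0.33 after normexp and 0.0047 without knockout 2.

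Plagl1 encodes ZAC1, a zinc finger factor that restrains proliferation and is described as a regulator of other imprinted genes. It had 4 probes, all well above background on every array. The brightest gave 1.29, 1.97, -0.17 and 1.77. Knockout 1 was far below the other arrays, and knockout 2 lay between the wild-type arrays. The log2 difference was -0.83 (SE 0.64), a 1.78-fold ratio, while the knockout arrays were 1.94 apart. The next probe gave nearly the same picture, with 0.95, 1.76, -0.47 and 1.54. The remaining probes were dimmer, with -2.57, -1.85, -3.13 and -2.50 on one and -4.14, -3.46, -3.55 and -3.39 on the other. Knockout 1 was lowest on 3 of the 4 probes, and wild type 1 on the dimmest, whose difference was 0.33. The mean of all 4 probes gave -0.48. On the brightest, the difference was 0.14 without knockout 1, -0.49 without wild type 2 and -2.14 within the shared slide.

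Peg3 encodes a large zinc finger protein found in stem and precursor cells of adult tissues. Its brighter probe gave -5.16, -4.15, -6.15 and -5.88. Both knockout arrays lay below both wild-type arrays, but wild type 2 alone was well above background, and the wild-type mean of -4.66 was under the knockout bound of -4.43, the mean of the lowest such signals of both knockout arrays, so no fold is given. The other probe gave -5.62, -5.16, -6.76 and -3.91, none well above background, so these have no measured order.

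Mest encodes a protein of the hydrolase fold linked to the enlargement of fat cells. It was close to background on all 3 of its probes. The brightest, printed 10 times, gave -4.61, -4.27, -5.32 and -4.17. The genotypes overlapped. Of its spots, 9 of 10 were well above background in wild type 2, 1 of 10 in wild type 1 and in knockout 2, and 0 of 9 in knockout 1. The SD over the spots of an array was 0.24 to 0.53 (log2).

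**Figure D3:**
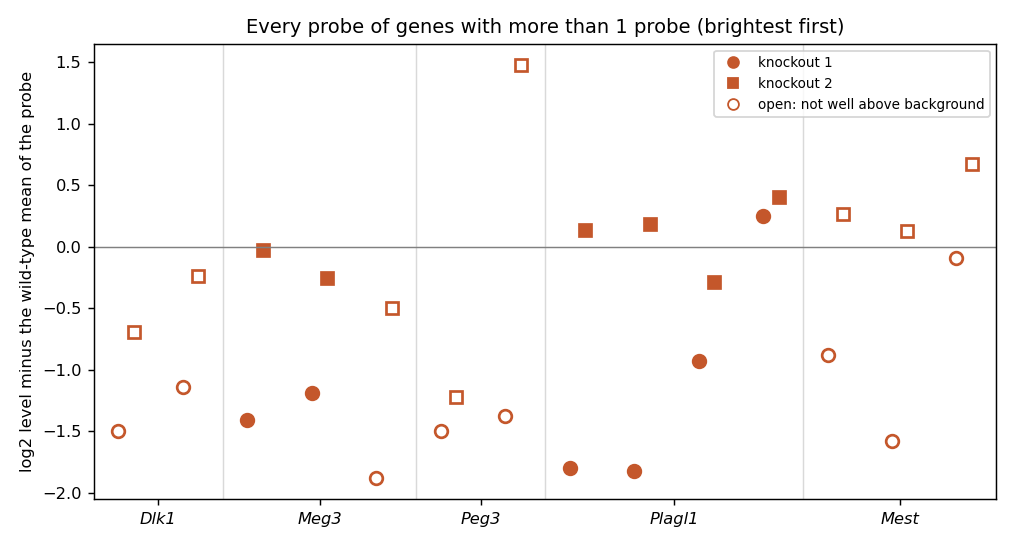
Every probe of the 5 genes with more than 1 probe, as the level in knockout 1 (circles) and knockout 2 (squares) minus the wild-type mean of that probe (log2), brightest probe first. Filled points were well above background on that array. Where knockout 1 was well above background, it lay below the wild-type mean on both such probes of Meg3 and on 3 of the 4 of Plagl1. The open points of Dlk1, Peg3, Mest and the dimmest Meg3 probe have only a bound.

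Other imprinted genes were read from a list of 61, of which 58 had a probe and 40 were tested. None passed limma's adjusted test, and 0 had an unadjusted p under 0.05, as only 63 of all 14395 genes tested did. Of the 40, 14 differences were positive and 26 negative, with a median of -0.10. Against the wild-type mean their median was -0.35 in knockout 1 but 0.12 in knockout 2, and knockout 1 was the lowest array for 24. The genotypes did not overlap for 10 of them, 7 lower and 3 higher in knockout, where the shares over all genes were 6.09% and 8.66%. Among the 7, Begain and Nnat were well above background in the wild-type arrays alone. They entered the test only through these arrays, which favours a lower knockout level for them.

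In the domain of Dlk1 and Meg3, the microRNA host gene Mirg gave -2.28, -2.70, -3.35 and -2.45, again lowest in knockout 1. Its log2 difference of -0.41 (SE 0.44) was 0.041 without knockout 1 and 0.56 after normexp. Rtl1, derived from a retrotransposon, and Dio3, which inactivates thyroid hormone, were above background nowhere, and Rian matched no probe. Begain, near that domain, gave -3.00, -3.81, -4.66 and -3.89. Like Dlk1 it was above background in the wild-type arrays alone, and its measured difference of -0.87 (SE 0.52) turned to 0.65 after normexp.

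In the domains of Igf2, H19 and Cdkn1c, Ascl2, a transcription factor of intestinal stem cells, gave 1.67, 1.87, 0.65 and 1.63. The genotypes did not overlap, though knockout 2 lay just under wild type 1, and the log2 difference was -0.63 (SE 0.38), or -0.13 without knockout 1. The potassium channel gene Kcnq1 differed by -0.073 (SE 0.29) and the insulin gene Ins2 by -0.012 (SE 0.43), and without knockout 1 by 0.17 and -0.43. Phlda2, a restraint on placental growth, was above background on 1 array.

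Near Peg3, Usp29 and Zim1 were above background on 0 arrays, as were Slc22a2 and Slc22a3, organic cation transporter genes beside Igf2r. Copg2, beside Mest, differed by 0.11 (SE 0.27), and Ddc, a decarboxylase of amine synthesis beside Grb10, by 0.31 (SE 0.50). Without knockout 1 Ddc differed by -0.40, and without wild type 2 Copg2 differed by 0.0041. The amino acid transporter gene Slc38a4 gave -3.01, -2.98, -5.65 and -2.68, with knockout 1 not well above background and its value there only a bound. The measured difference of -1.16 (SE 0.93) was 0.32 without knockout 1. Gatm, an enzyme of creatine synthesis, differed by -0.60 (SE 0.47), with knockout 2 not well above background.

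The IGF system, in which Igf2, Igf2r and Grb10 act, had 16 of 22 listed genes tested. None passed limma's test, and 0 had an unadjusted p under 0.05 (63 of all 14395 genes). With 5 differences positive and 11 negative, the median was -0.17, and it was 0.17 after normexp. In knockout 1 the median was -0.42 and in knockout 2 it was 0.12. Igf1r, the receptor through which both IGFs signal, gave 0.50, 1.00, -0.46 and 0.76, a difference of -0.60 (SE 0.46) that was 0.013 without knockout 1. The binding protein genes Igfbp4 and Igfbp2 differed by -0.37 (SE 0.34) and 0.58 (SE 0.64). Without knockout 1 these were -0.017 and 1.43, and without knockout 2 -0.71 and -0.26. Stc2, an inhibitor of the proteases that free IGF, differed by -0.44 (SE 0.51), and by 0.21 without knockout 1.

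Of 18 listed Notch pathway genes, to whose ligands Dlk1 is related, 15 were tested. None passed, and 0 had an unadjusted p under 0.05 (63 of all 14395 genes). Their median was -0.071, and 0.52 after normexp. Sox9, a factor of crypt cells and a described target of Dlk1 in fat precursors, gave 0.95, 1.86, -0.42 and 1.44. Its difference of -0.90 (SE 0.64) was 0.028 without knockout 1. The ligand genes Dll1, Dll4 and Jag1 differed by 0.45 (SE 0.44), 0.46 (SE 0.52) and 0.29 (SE 0.31). Without knockout 1 Dll1 and Dll4 turned to -0.12 and -0.16, and Jag1 ran from 0.13 to 0.46 with each array left out.

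Beside Cdkn1c, 5 of 6 other inhibitors of cyclin-dependent kinases were tested. None passed, and 0 had an unadjusted p under 0.05 (63 of all 14395 genes), with a median of 0.10, or -0.24 after normexp. Cdkn1a, Cdkn2b, Cdkn2c and Cdkn2d differed by 0.13 (SE 0.38), 0.32 (SE 0.50), 0.10 (SE 0.33) and -0.10 (SE 0.27). Without knockout 1 they differed by -0.36, -0.42, 0.32 and 0.014.

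Markers of some other cell types were also low in knockout 1, and those of others were not. Knockout 1 was the lowest array for 2 of 6 endothelial, 2 of 5 leukocyte and 0 of 5 enteroendocrine genes tested. The tissue was checked first: all 10 epithelial genes, such as villin (Vil1) and the intestinal factor Cdx2, were well above background on every array. Their summed linear level, in units of the array's 75th percentile, was 828, 627, 1136 and 610. All 6 smooth muscle genes were lowest in knockout 1, with sums of 172, 197, 97.4 and 298. So were all 8 fibroblast genes, with sums of 21.1, 29.8, 16.6 and 32.3. Of 8 genes of enteric neurons and glia 7 were lowest there, with sums of 88.4, 59.1, 44.8 and 118. Their part in the levels of the imprinted genes was not tested. In bulk RNA, fewer cells of a type and less RNA per cell cannot be told apart.

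Of 8 adipocyte genes, Lep and Plin1 were above background nowhere, and Adipoq was above it in wild type 2 and knockout 2 alone. The adipocyte sums were 12.8, 15.1, 17.5 and 10.9, and the medians against wild type -0.60 in knockout 1 and 0.92 in knockout 2. The largest part of these sums came from Cidec, at 3.26, 3.60, 3.95 and 2.47 (log2). Of the 6 tested adipocyte genes, 4 were lowest in knockout 1, while Cidec and Lipe were lowest in knockout 2. Of 5 mesothelial genes, Msln alone was above background, at -1.48, -1.28, -3.08 and -0.68. Pancreatic acinar sums were 0.382, 0.636, 0.582 and 0.983, and 5 of the 8 genes, Cela2a, Cpb1, Cpa1, Pnlip and Prss2, were above background nowhere. The 6 liver genes summed to 10.1, 4.002, 2.39 and 4.42, with wild type 1 the highest. Endothelial sums were 18.1, 21.0, 16.0 and 22.1, and leukocyte sums 9.74, 7.87, 8.26 and 7.70.

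**Figure D4:**
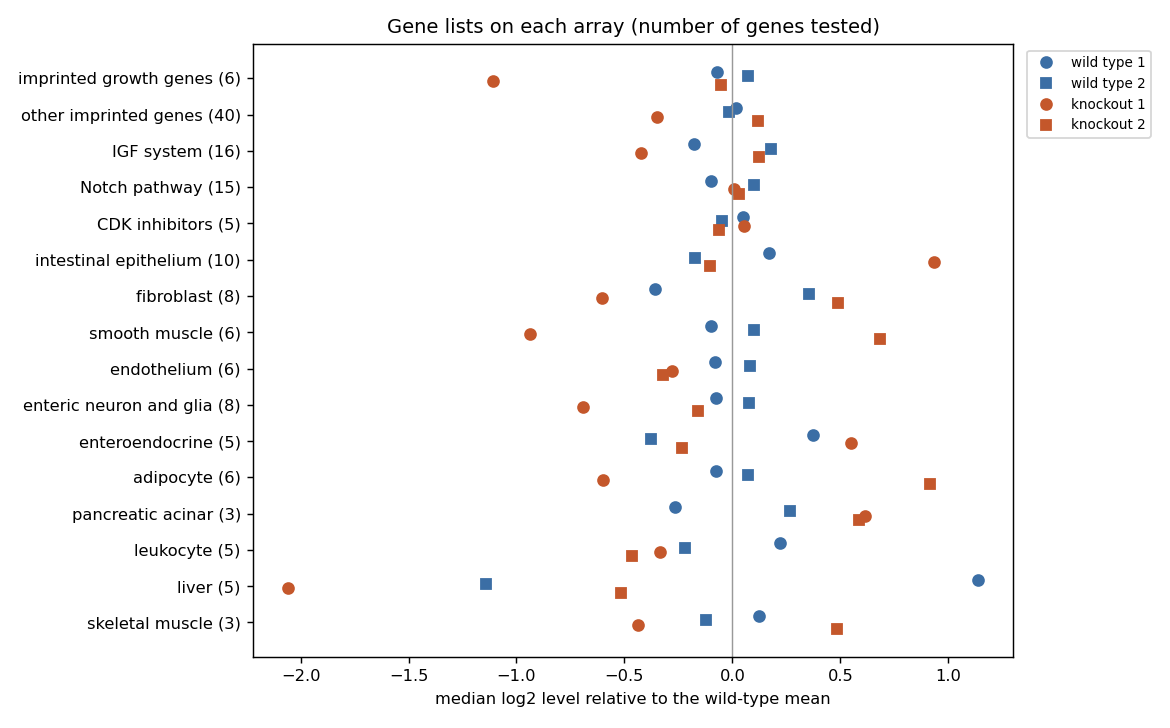
Median log2 level of each gene list on each array relative to the wild-type mean, with the number of genes tested in brackets. Blue points are wild type and orange points knockout. Knockout 1 (orange circles) lay at -1.11 for the imprinted growth genes, -0.94 for smooth muscle, -0.61 for fibroblasts and -0.69 for enteric neurons and glia, and at 0.93 for the intestinal epithelium.

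**Figure D5:**
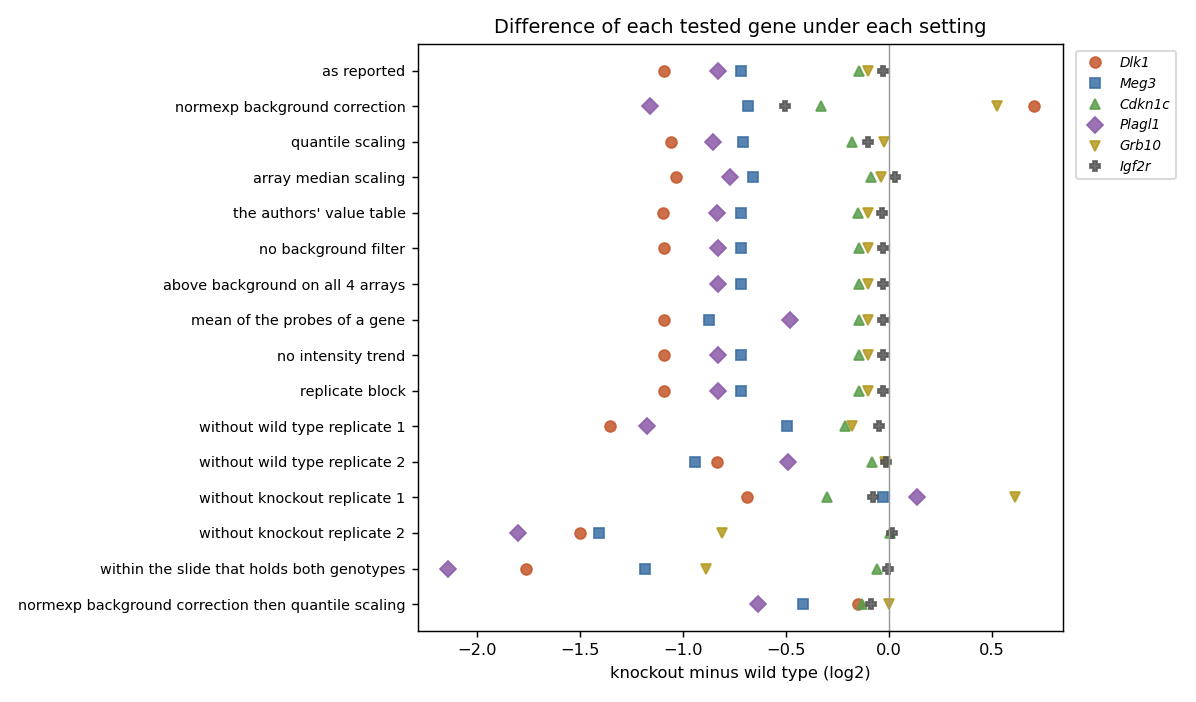
Knockout minus wild type (log2) of the 6 tested genes under each processing setting. Meg3 stayed below 0 under every setting shown, while Dlk1 and Grb10 turned to 0.70 and 0.53 after normexp and Plagl1 to 0.14 without knockout 1.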

How the data were processed

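Cy3-labelled RNA was hybridised to 4 Agilent 1-colour arrays, grouped by genotype from the labels. The submitters' processing notes name Agilent Feature Extraction 11.5.1.1. Per the file headers, the deposited intensity of each spot is background-subtracted and not scaled between arrays, and comes with its error and flags. The authors' deposited log2 value table equalled, within 0.01 over 39408 probes, the scaling used here minus each probe's median, so its direction and centring are known.

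Control spots and spots marked as outliers (91 to 129 per array) were left out, log2 spots of a probe were averaged, and each array's 75th percentile (a signal of 175 to 356) was subtracted. RefSeq accessions (GRCm38.p6) gave 1 symbol to 28025 of 39429 probes. Differences, standard errors and adjusted p-values (Benjamini-Hochberg, 0.05) came from limma 3.58.1 in R 4.3.3, using lmFit and eBayes(trend=TRUE) over all 14395 genes, and the script was tested on simulated data. Normexp, an alternative, used the median spot signal in place of the mean planned.

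The members and lists were chosen with earlier results of these data known. Named were all members, the genes beside them in a domain, up to 4 genes of the smallest p-value per list and the 5 genes most like Dlk1. Wild type 2 and knockout 1 shared a slide and scan, and the other arrays had 1 each. With no slide correlation estimable, values within the shared slide are given. The number of arrays limits the precision.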

Additional observations from a re-analysis of the deposited data

How the results depend on the processing

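The 6 tested genes gave 0 calls under every alternative with a test except without knockout 2, so that leaving out each array gave 0 to 2 calls. Those 2 were Meg3 and Plagl1 (log2 differences -1.41 and -1.80). They rest on knockout 1 alone and on genes chosen with these levels in view, and support nothing. The median difference of the 6 ran from -1.11 to -0.052 with each array left out and was -1.04 within the shared slide. Over all genes 0 were called higher and 6 lower, with 63 at an unadjusted p under 0.05. The counts were 3 and 10 after normexp and 0 and 0 with genes above background on all 4 arrays, where Dlk1 was not tested. Leaving out each array gave 0 to 135 higher, and 0 to 298 lower, the upper ends without knockout 2. Without that array Slc38a4, Igfbp6 (chosen after its value was seen) and Sox9 passed, so the other imprinted genes, the IGF system and the Notch pathway had 0 to 1 calls each. Quantile scaling after normexp was chosen after seeing the data.

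Arrays of the same replicate number deviated from their group means with a correlation of 0.051. Across genes, this compares the difference between the wild-type arrays with that between the knockout arrays. It cannot decide whether arrays of the same number were paired, as the shared slide held arrays of different replicate numbers. With the replicate block 6 genes were called higher and 26 lower, and 0 of the 6 imprinted growth genes.

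Directions of listed genes turned as follows, and the cause was not tested. After normexp the log2 differences were 0.56 for Mirg, 0.65 for Begain, 0.63 for Ins2, -0.17 for Copg2, -0.34 for Ddc, 0.53 for Slc38a4, 0.71 for Gatm, 0.45 for Stc2, -0.24 for Cdkn1a and -0.16 for Cdkn2b. With quantile scaling after normexp each of these had the sign first reported, from -0.16 for Begain to 0.25 for Cdkn2b. The medians were then -0.065 for the IGF system, -0.038 for the Notch pathway and 0.053 for the inhibitors of cyclin-dependent kinases. Ins2 was 0.026 with quantile and 0.047 with array median scaling. Within the shared slide Ins2 was 0.091, Gatm 0.0093, Igfbp2 -0.085 and Cdkn2c -0.28. With each array left out the lowest and highest values were -0.11 and 0.32 for Cdkn2c, -0.43 and 0.40 for Ins2, -0.36 and 0.62 for Cdkn1a, -0.86 and 0.041 for Mirg, -0.31 and 0.17 for Kcnq1, -0.40 and 1.03 for Ddc, -2.65 and 0.32 for Slc38a4, -1.21 and 0.013 for Igf1r, -1.09 and 0.21 for Stc2, -0.12 and 1.02 for Dll1, -0.16 and 1.08 for Dll4, -1.83 and 0.028 for Sox9, -0.42 and 1.06 for Cdkn2b, -0.22 and 0.014 for Cdkn2d and -0.26 and 1.43 for Igfbp2. Signal near background limits Dlk1, Igf2, Peg3 and Mest.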
